A study of Caenorhabditis elegans with 2 samples.

Results

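The small nuclear RNA (snRNA) genes of Caenorhabditis elegans were examined for chromatin bound by the nuclear hormone receptor NHR-76. The members are every gene of biotype snRNA in the Ensembl release 115 annotation of WBcel235, the assembly also called ce11. The rule uses no binding value and gives 129 of 46890 annotated nuclear genes. Their annotated lengths run between 22 and 187 bp with a median of 109 bp. ChIP-seq had been carried out in mixed-stage embryos of strain OP203, genotype unc-119(ed3) III; wgIs203, which stably expresses NHR-76 with a C-terminal GFP-FLAG tag from an inserted transgene. Males and females were pooled, whole animals were used, and chromatin was sheared by sonication; the labels give nhr-76 as the antibody target. The 2 libraries are labelled biological replicates 1 and 2 and form 1 group, so no condition can be set against another. Whole embryos were used, so a peak cannot be assigned to a cell type.

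Peak lists, not reads, were analysed. The pooled list of both replicates holds 30000 candidates, described by the authors as peaks and background, of which 140 form the final list that passed their reproducibility threshold. The list of replicate 1 holds 7516 peaks and that of replicate 2 holds 30000. Each peak carries the authors' signal value, whose scale is not stated, and is given here with its rank in its own list, the strongest being rank 1. In the pooled list the signal runs between 2.82 and 442, with a median of 4.31 and 10.1 at rank 1000. The depth behind these values is unknown.

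snRNAs are the RNA parts of the spliceosome, the machine that removes introns from pre-mRNA. U1 recognizes the 5′ splice site, U2 the branch site, and U4, U5 and U6 join as a unit whose rearrangement forms the catalytic centre. In nematodes the SL1 and SL2 RNAs donate a short leader exon to the front of many mRNAs by trans-splicing, and SmY RNAs accompany that reaction. In animals most snRNA genes are transcribed by RNA polymerase II, and U6 genes by RNA polymerase III. Their promoters carry a proximal sequence element bound by the SNAP complex.

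The reference tables name SL1 genes (sls-1), SL2 genes (sls-2), SmY genes (smy) and the sup-6 and sup-39 genes, but give no U type for the others. Genes were therefore placed in families by symbol or by sequence identity of at least 75%, and each sequence family is called by 1 of its genes. ZK1251.14 has no sls-2 symbol and is counted with the SL2 genes by identity. The RNAs of sls-2.1 and sup-39, both near a strong candidate, are shown first, together with sls-1.2 as a member of the family with none. Capitals mark the 22-base leader in sls-2.1 and in sls-1.2, whose annotated start lies 1 base before the leader. In sup-39 they mark ACTTACCTG, known from the 5′ end of U1, and ATTTTTG, a form of the site bound by Sm proteins. Sequences here and below are from the RefSeq sequence of WBcel235 and are written 5′ to 3′ on the gene's strand.
sls-2.1 RNA, chrII:5844865-5844974, + strand: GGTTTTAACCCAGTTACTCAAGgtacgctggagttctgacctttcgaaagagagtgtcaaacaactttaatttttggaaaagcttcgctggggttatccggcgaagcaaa
sup-39 RNA, chrII:6968394-6968558, - strand: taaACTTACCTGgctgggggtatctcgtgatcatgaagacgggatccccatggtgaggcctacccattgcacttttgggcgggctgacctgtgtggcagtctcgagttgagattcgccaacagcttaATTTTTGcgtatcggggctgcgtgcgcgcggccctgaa
sls-1.2 RNA, chrV:17131064-17131161, - strand: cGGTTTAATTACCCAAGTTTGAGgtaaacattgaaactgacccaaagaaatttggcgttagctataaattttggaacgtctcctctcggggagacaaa

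ATTTTTG is in 72 of the 129 genes and in none of the 24 genes of the R07E5.16 family or the 12 SL1 genes. A run of TTTT at or just after the 3′ end is in all 24 R07E5.16 genes and in 43 of the 129 genes. The word GTAGTA, known from the branch-site pairing region of U2, is in 18 of 19 genes of the C47F8.9 family. ACTTACCTG is in 12 of 13 genes of the sup-6 family, and AGCTTTGCG, known from the 5′ end of U4, in 5 of 5 genes of the T11F9.15 family. GTAGTA, ACTTACCTG and AGCTTTGCG were found in no other family, and 1 gene outside the families holds GTAGTA. These are letter matches and do not replace a name in the annotation. Across the 129 genes there are 94 distinct sequences, and 44 genes share theirs with another member.

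A pooled summit lay within 500 bp of 38 of the 129 snRNA genes (29.5%, exact Clopper-Pearson 95% interval 21.8 to 38.1), against 26.6% of the other noncoding genes of at most 300 bp and 44% of all nuclear genes. As a background, a gene of each member's length was set at every start position of that member's chromosome. Averaged over members, 28.4% of these positions had a pooled summit within 500 bp. The snRNA share is close to that, so presence anywhere on the pooled list is near the background. The share was 56.9% for tRNA genes and 60.4% for snoRNA genes, both outside the snRNA interval. Of those short noncoding genes 15363 of 24060 are piRNA genes, and without them the share was 44.4%, above the snRNA interval. A summit of rank 1000 or better lay within 500 bp of 12 snRNA genes (9.3%, interval 4.9 to 15.7). It did for 2.22% of other short noncoding genes, 3.12% of all nuclear genes and 0.993% of the start positions described above. The 14.4% of tRNA genes and 14.2% of snoRNA genes were above that snRNA value but inside its interval. Without piRNA genes the share of short noncoding genes was 5.47%, also inside the snRNA interval. In the pooled list at rank 1000 the shares of the set with piRNA genes and of all nuclear genes thus lay below the snRNA interval. That of short noncoding genes without piRNA genes lay inside it. All nuclear genes include the piRNA genes too, and that set was not read without them. Intervals treat genes as independent and cover counting error only. One of the 12, mir-1831, is a 22-bp annotation inside sup-39 and shares its candidate. None of these differences was tested, and members that share a sequence or a candidate are not independent.

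A final peak lay within 500 bp of 1 snRNA gene (0.775%, interval 0.0196 to 4.24), against 0.278% of other short noncoding genes and 0.444% of all nuclear genes, and 0.77% of short noncoding genes without piRNA genes. For comparison it was 1.47% of tRNA genes and 6.65% of snoRNA genes. The snoRNA share is above the upper bound of the snRNA interval.

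The replicate lists were each read in the same way. In replicate 1, 18 snRNA genes (14%) had a peak within 500 bp, against 7.51% of other short noncoding genes and 15.7% of all nuclear genes. In replicate 2, 46 (35.7%) had one, against 26.7% and 43.3% of those sets. Without piRNA genes the share of short noncoding genes was 14.4% in replicate 1 and 42.3% in replicate 2, so the snRNA shares were not above it. Both lists held a peak at 15 snRNA genes (11.6%, interval 6.66 to 18.5), against 3.91% of other short noncoding genes and 11.3% of all nuclear genes. A gene in both lists need not have the same site in each. Replicate 1 and 2 summits lay at 563 and -57 bp from the 5′ end at sls-2.7, and at 515 and -413 bp at T10H4.16. At sls-2.1 they lay at -57 and -58 bp. Among the 15, sup-39 and mir-1831 share the same peaks. Replicate peaks of rank 1000 or better were near 5 snRNA genes in replicate 1 (3.88%, interval 1.27 to 8.81), against 1.3% and 2.62% of those sets, both inside the interval. In replicate 2 they were near 9 (6.98%, interval 3.24 to 12.8), against 1.91% and 2.9%, both below the interval. Both of those sets include the piRNA genes, and all nuclear genes were not read without them. Among short noncoding genes without piRNA genes the share was 8.72% in both lists, 3.29% at rank 1000 or better in replicate 1 and 4.82% in replicate 2, each inside the snRNA interval. Thus against the 12 at pooled rank 1000 there were 5 in the replicate 1 list alone and 9 in the replicate 2 list alone. The 9 are not all among the 12, of which 8 were in the top 1000 of replicate 2. Against the 38 in the whole pooled list there were 18 in replicate 1. The lists differ in length, which bears on any count over a whole list.

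**Figure D1:**
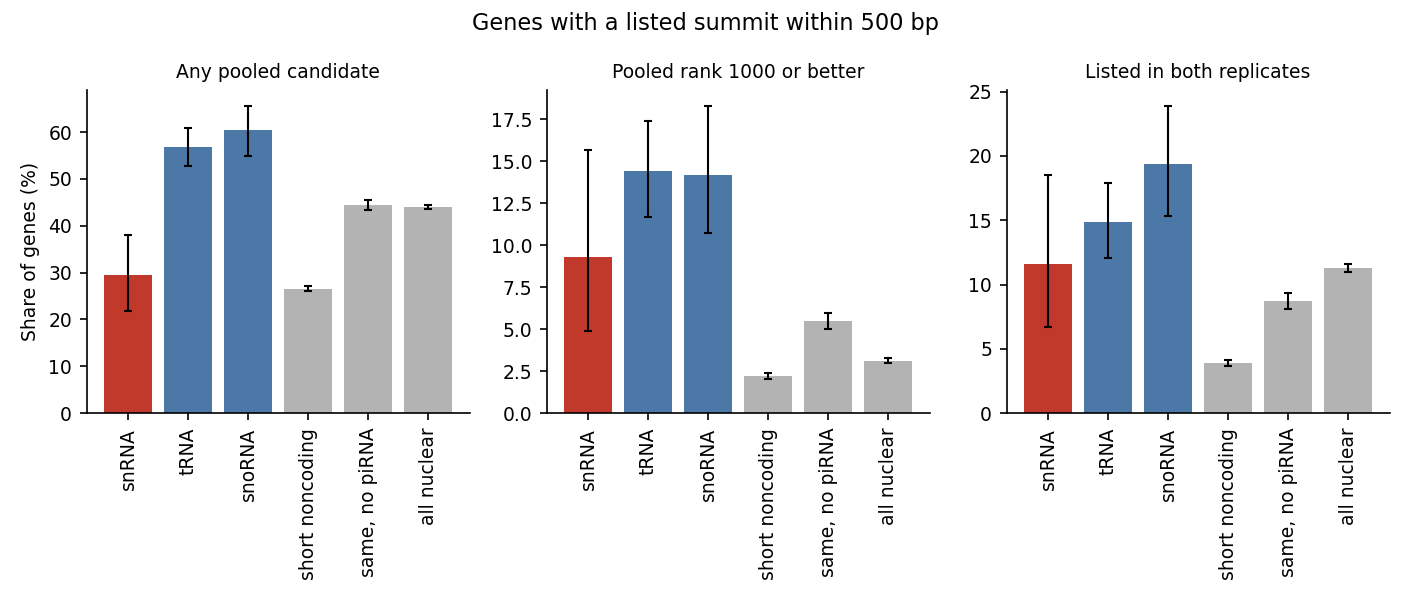
Share of genes, in percent, with a summit within 500 bp in the pooled list (left), among pooled candidates of rank 1000 or better (middle) and in both replicate lists (right), for snRNA, tRNA, snoRNA, other short noncoding genes with and without piRNA genes, and all nuclear genes. Bars are shares and whiskers exact 95% intervals for counting over genes. snRNA genes stand at 29.5, 9.3 and 11.6%, and the vertical scales differ between panels.

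The pooled or a replicate list held a peak within 500 bp of 52 snRNA genes (40.3%), against 36.6% of other short noncoding genes and 54.4% of all nuclear genes. Without piRNA genes the share of short noncoding genes was 55.8%, above the snRNA share. By family the 52 were 13 of 19 SL2 genes, 8 of 12 F07C6.5 genes, 8 of 13 sup-6 genes, 8 of 24 R07E5.16 genes, 6 of 19 C47F8.9 genes, 2 of 10 SmY genes, 2 of 5 T11F9.15 genes, 0 of 12 SL1 genes and 5 of 15 genes outside the families. In the pooled list alone the counts were lower in most families, and differences between families were not tested. SL2 genes had a pooled candidate at 12 of 19 and one of rank 1000 or better at 4, and F07C6.5 genes at 8 of 12 and at 2. R07E5.16 genes had one at 6 of 24 and at 2, sup-6 genes at 3 of 13 and at 1, and SmY genes at 1 of 10 and at 1. The C47F8.9 family had one at 2 of 19 and the T11F9.15 family at 1 of 5, none of rank 1000 or better. The 12 SL1 genes had none in any list. Of the 15 genes outside the families, 5 had a candidate and 2 had one of rank 1000 or better. Among the 38 listed genes the signal had a median of 5.78. The other 77 members were in none of the lists.

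**Figure D2:**
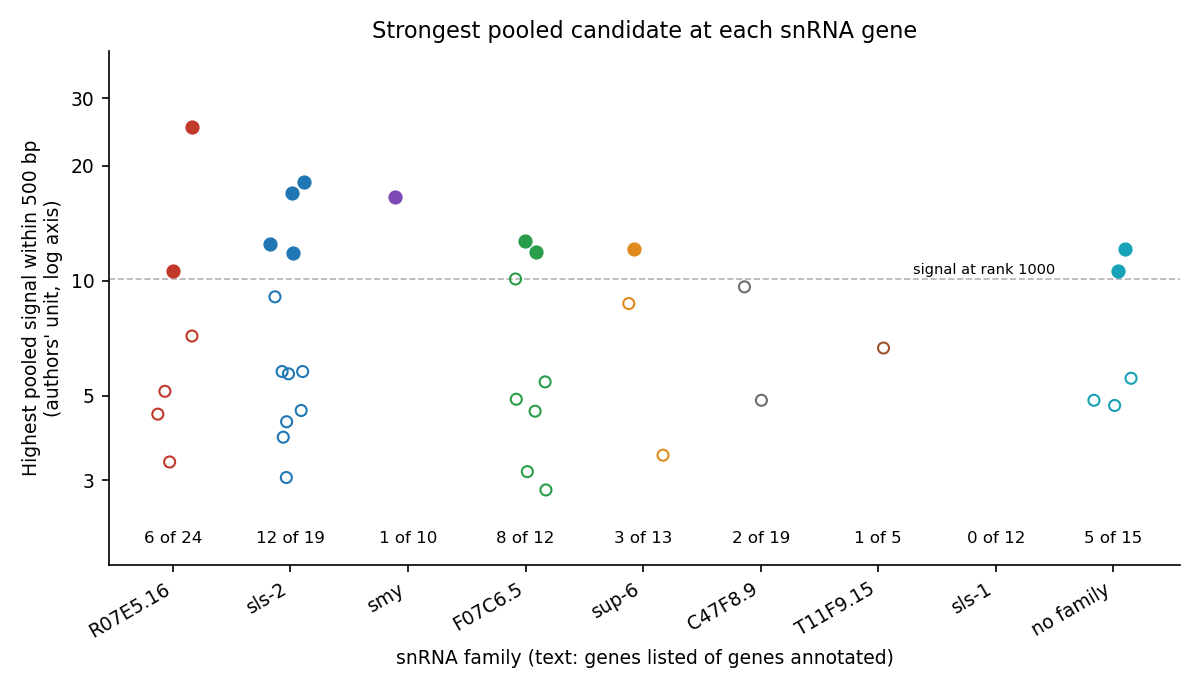
Highest pooled signal within 500 bp of each listed snRNA gene (authors' unit, log axis), by family, with the number of genes listed of those annotated below each column. Filled points are rank 1000 or better and open points are below it; the dashed line is the signal at rank 1000. W05B2.8 is highest at 25.3, the sls-2 family has 4 filled points, and sls-1 has no point.

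The strongest candidate was at W05B2.8 (WBGene00014543), a gene of the R07E5.16 family. It lies at chrIII:10989679-10989780 on the plus strand, inside an intron of dhc-4. Its peak, chrIII:10989653-10989992, covers the gene and is on the final list. W05B2.8 had a signal of 25.3 at rank 73 in the pooled list, 12 at rank 26 in replicate 1 and 14.4 at rank 187 in replicate 2. The gene was thus among the top 1000 of every list. The pooled summit lay 43 bp past the gene's 3′ end, and the replicate 2 summit at the same base. R07E5.16 itself, at chrIII:4414185-4414286 in an intron of mpc-1, had 10.6 at rank 841 in the pooled list and 7.72 at rank 1923 in replicate 2, and was not listed in replicate 1. Its summit lay 7 bp past the 3′ end.

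W05B2.8 and R07E5.16 belong to a set of 14 genes with the same 102-base sequence. Of these 14, only those 2 had a pooled candidate, and 4 were in any list. C28A5.7 was in the replicate 2 list alone and F54C8.9 in the replicate 1 list alone. The 100 bases upstream differ: W05B2.8 and R07E5.16 are 61% identical there and W05B2.8 and K09B11.12, a copy in no list, 49%. How reads that fit several copies were placed is not given in the sources used here, and its part in these values was not tested. Among all members, 11 of 44 genes with a shared sequence (25%) had a pooled candidate and 3 (6.82%) one of rank 1000 or better, against 27 of 85 (31.8%) and 9 (10.6%) of the genes with a sequence of their own. With the SL1 genes left out, 11 of 32 sharing genes (34.4%) had a candidate.

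The other R07E5.16 genes were weaker. F54D8.7 had 7.16 at rank 3754 in the pooled list, with the pooled summit 480 bp from the gene, and 3.42 at rank 18126 in replicate 2. The replicate 2 value is from another site: the pooled summit lay at 580 bp from the gene's 5′ end and the replicate 2 summit at 113 bp. The remaining 3 pooled genes of the family, Y17G9A.85, F54C8.10 and T08B6.62, had 5.13, 4.47 and 3.35. None of these 4 was listed in replicate 1.

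SL2 RNAs supply the leader that caps downstream genes of worm operons. sls-2.4 (chrI:4172206-4172315, plus strand, between genes) had 18.1 at rank 173 in the pooled list, 5.41 at rank 361 in replicate 1 and 12.9 at rank 259 in replicate 2. sls-2.2 (chrII:5543598-5543707) had 12.5 at rank 449, 6.71 at rank 140 and 9.55 at rank 809 in those lists. Both were in the top 1000 of every list, as W05B2.8 was, and no other member was. sls-2.1 (chrII:5844865-5844974) had 17 at rank 201 in the pooled list, 3.89 at rank 1311 in replicate 1 and 13.5 at rank 226 in replicate 2. sls-2.9 (chrI:13297877-13297985) had 11.8 at rank 563 in the pooled list and 12.3 at rank 305 in replicate 2, with no peak in replicate 1. The tRNA gene M01E5.t1 also lay within 500 bp of the sls-2.9 summit.

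The summits of the 4 strongest SL2 genes lay 9 bp past the 3′ end at sls-2.4, and 57, 1 and 86 bp before the 5′ end at sls-2.1, sls-2.2 and sls-2.9. No protein-coding transcript began within 500 bp of any of these 4 summits, and the nearest start was 733 bp away. Below rank 1000, sls-2.8 had 9.07 at rank 1534 in the pooled list and 10.1 at rank 631 in replicate 2, and the 5′ end of Y75B8A.23 was 58 bp from its summit. sls-2.16 and sls-2.18 shared 1 candidate of 5.78 at rank 7372, and sls-2.15 had 5.7 at rank 7642. The other SL2 genes with a pooled candidate ran between 3.05 and 4.57.

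SmY RNAs were represented by smy-1 alone in the pooled list. smy-1 (chrIV:9511763-9511839, minus strand, in an intron of C33A12.3) had 16.6 at rank 209 in the pooled list, 2.61 at rank 4295 in replicate 1 and 14.8 at rank 172 in replicate 2. Its summit was 216 bp past the 3′ end. It lay 81 bp upstream of smy-2, a gene of the same naming series that the annotation classes as snoRNA, and 337 bp from the 5′ end of C33A12.3. The candidate is therefore nearer to smy-2 than to smy-1. smy-3, also classed as snoRNA, had no pooled candidate.

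The F07C6.5 family had 2 genes of rank 1000 or better. F38E11.10 (chrIV:9444642-9444763, plus strand, outside protein-coding genes) had 12.7 at rank 428 in the pooled list, 4.01 at rank 1183 in replicate 1 and 13.3 at rank 235 in replicate 2. Its pooled summit was 29 bp before the 5′ end, while the replicate 2 summit was 238 bp away from it. F42C5.12 (chrIV:7316732-7316853, in an intron of F42C5.9) had 11.9 at rank 534 in the pooled list and 9.76 at rank 738 in replicate 2, with none in replicate 1. Its summit was 2 bp past the 3′ end and 248 bp from the 5′ end of F42C5.9. F32B5.9 fell just outside the limit, with 10.1 at rank 1002 in the pooled list, 2.91 at rank 3192 in replicate 1 and 7.7 at rank 1941 in replicate 2. Its replicate 1 summit lay at -43 bp from the 5′ end, and the pooled and replicate 2 summits at 199 and 204 bp. The other 5 listed genes of the family ran between 2.83 and 5.43, with ZK897.2 the highest of them at rank 8728.

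The sup-6 family holds the U1 word, and sup-6 and sup-39 take their names from mutations that suppress other mutations. sup-39 (chrII:6968394-6968558, minus strand, in an intron of C15F1.5) had 12.1 at rank 504 in the pooled list, 5.16 at rank 434 in replicate 1 and 3.38 at rank 18511 in replicate 2, and its summit lay inside the gene. sup-6 had 8.71 at rank 1808 in the pooled list, 2.03 at rank 7319 in replicate 1 and 8.77 at rank 1151 in replicate 2, with the pooled summit 124 bp past its 3′ end. Its replicate 1 summit lay at -95 bp from the 5′ end, and its pooled and replicate 2 summits at 288 and 273 bp. By best rank within 500 bp the replicates put these genes in opposite order, but the sup-6 values of the 2 replicates are from different sites. T08G5.11, the third listed gene of the family, had 3.49.

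The C47F8.9 and T11F9.15 families, with the U2 and U4 words, had weak candidates. Y57G11C.35 had 9.63 at rank 1217 in the pooled list, 2.78 at rank 3623 in replicate 1 and 6.44 at rank 3758 in replicate 2. The 5′ end of Y57G11C.5 was 72 bp from its pooled summit. The replicate 2 value is from another site: the pooled summit lay at -165 bp from the gene's 5′ end and the replicate 2 summit at 442 bp. F08G2.10 had 4.86 in the pooled list. C52E4.8 had 6.66 at rank 4737 in the pooled list and 3.17 at rank 20544 in replicate 2, with the summit 278 bp from the gene. Of the genes outside the families, W07G1.24 (chrII:13942499-13942647, minus strand) had 10.6 at rank 844 in the pooled list, 2.45 at rank 4948 in replicate 1 and 4.12 at rank 12775 in replicate 2. It was the weakest member inside rank 1000, and its summit lay inside the gene. W07G1.24 is also the 1 gene outside the families that holds GTAGTA, the U2 word. F56A12.5 had 5.55 at rank 8246, with the snoRNA gene F56A12.6 within 500 bp.

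The 12 SL1 genes lie at chrV:17118154-17132107 among 13 annotated rRNA genes. In that stretch widened by 500 bp there was 1 overlapping interval in the pooled list, none in replicate 1 and 1 in replicate 2, but no summit within 500 bp of an SL1 gene. All 12 share their sequence with another SL1 gene, and the placing of reads in such repeats was not tested. No statement about binding at these genes can be drawn from their absence.

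**Figure D3:**
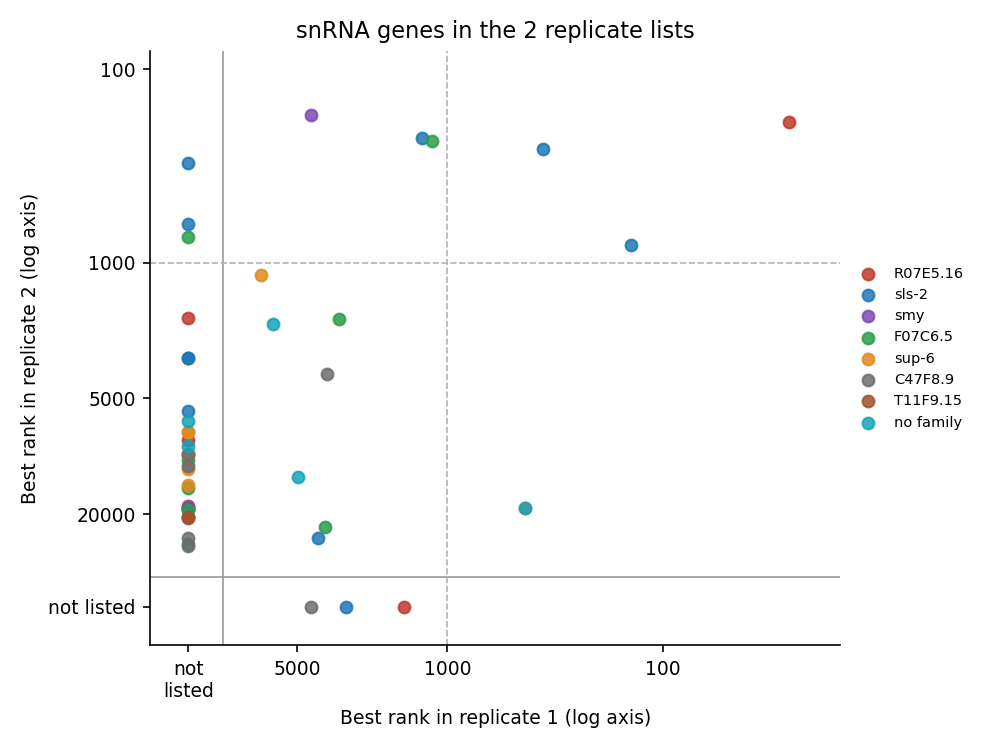
Best rank within 500 bp of each listed snRNA gene in replicate 1 (horizontal) and replicate 2 (vertical), log axes with the strongest at the right and top; genes missing from a list are in the outer strips. W05B2.8, sls-2.4 and sls-2.2 are in the top 1000 of both lists, 31 genes are in replicate 2 only and 3 in replicate 1 only.

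Of the 12 genes of rank 1000 or better, 9 were listed in replicate 1 and 12 in replicate 2. In the top 1000 of the replicate lists there were 5 of them for replicate 1, 8 for replicate 2 and 3 for both. Summits repeated closely: 9 of 9 in replicate 1 lay within 150 bp of the pooled summit (median 38 bp) and 11 of 12 in replicate 2 (median 49 bp). Pooled peaks contain the reads of both replicates, so these distances are not independent.

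Where the strongest summits lay also differed between strong and weak candidates. Among the 12 genes of rank 1000 or better, 11 had the summit within 100 bp of the gene (91.7%), with a median distance of 19 bp. Among the 26 below it, 10 had (38.5%), with a median of 134 bp. The same order was seen between strong and weak candidates at tRNA genes, 79.5% against 52.3%, at snoRNA genes, 93.9% against 45.6%, and at other short noncoding genes, 63.1% against 32.2%. It is not particular to snRNA genes. With reference to the gene's strand, 19 of the 38 strongest summits were upstream of the 5′ end (50%, exact interval 33.4 to 66.6), 4 within the gene and 15 downstream of it. For the 12 of rank 1000 or better these counts were 4, 2 and 6. Nearly all peak intervals have a fixed width, 340 bp in the pooled list, with the summit at the middle, so a side of a gene about 100 bp long is resolved only coarsely. A protein-coding transcript began within 500 bp of 2 of the 12 summits and of 9 of all 38.

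**Figure D4:**
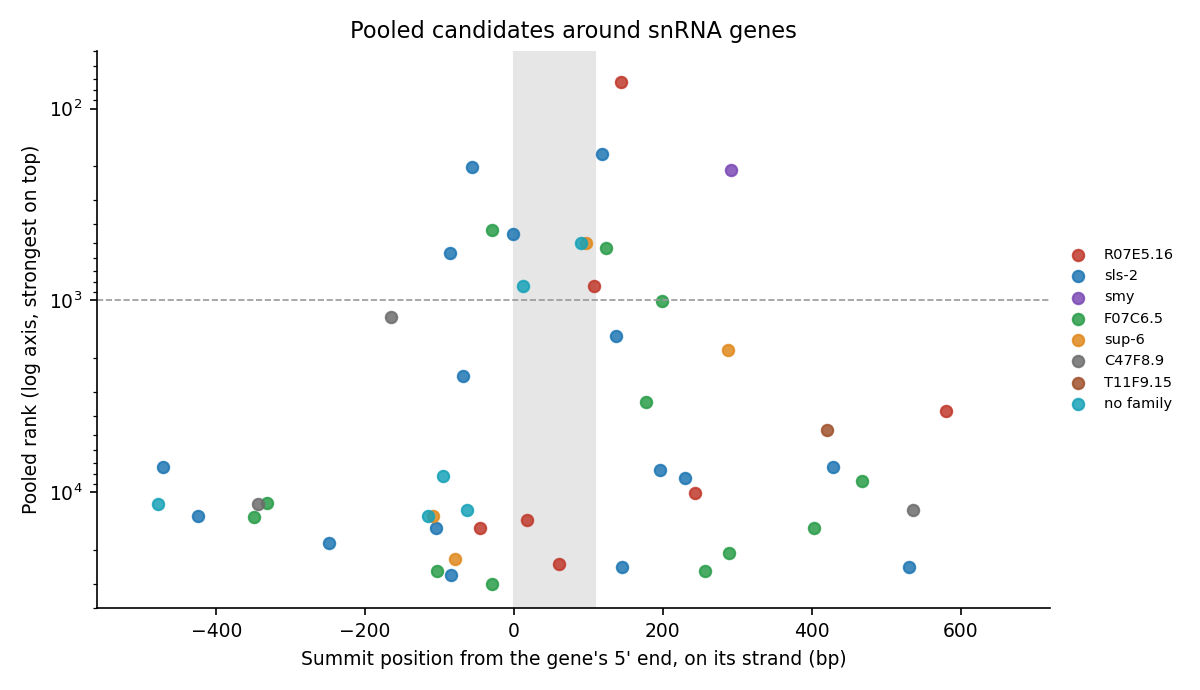
Position of every pooled summit within 500 bp of an snRNA gene, in bp from the gene's 5′ end along its strand, against pooled rank (log axis, strongest on top). Points are gene and candidate pairs coloured by family, the grey band is the median gene length of 109 bp, and the dashed line is rank 1000. Above the line all but 1 of the summits lie within 100 bp of the gene; below it they spread to both sides.

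The promoter region is shown for strong members, with sls-2.4, sls-2.9 and W07G1.24 not shown, and with K09B11.12 as an unlisted copy of W05B2.8 and sls-1.2 as an SL1 gene. Each line gives the 100 bases before the annotated 5′ end. Capitals mark CGNAACCC, GTCNGTAC, TATAAA or TATATA on the gene's strand, where N is any base. Both N words were widened from the 8-base words most shared by snRNA upstream regions, CGGAACCC and TGTCGGTA, after these sequences had been seen.
W05B2.8 upstream, chrIII:10989579-10989678, + strand: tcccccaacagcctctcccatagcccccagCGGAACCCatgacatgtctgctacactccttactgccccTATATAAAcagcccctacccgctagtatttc
R07E5.16 upstream, chrIII:4414085-4414184, + strand: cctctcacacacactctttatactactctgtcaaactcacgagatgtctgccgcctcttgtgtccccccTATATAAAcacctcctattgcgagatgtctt
K09B11.12 upstream, chrIV:13438997-13439096, + strand: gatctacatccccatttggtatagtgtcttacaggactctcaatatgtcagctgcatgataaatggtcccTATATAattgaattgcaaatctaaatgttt
sls-2.1 upstream, chrII:5844765-5844864, + strand: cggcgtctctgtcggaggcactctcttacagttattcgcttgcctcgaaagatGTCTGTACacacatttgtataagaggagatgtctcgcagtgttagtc
sls-2.2 upstream, chrII:5543498-5543597, + strand: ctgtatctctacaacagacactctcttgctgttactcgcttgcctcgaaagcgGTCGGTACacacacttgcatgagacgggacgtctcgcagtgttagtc
smy-1 upstream, chrIV:9511840-9511939, - strand: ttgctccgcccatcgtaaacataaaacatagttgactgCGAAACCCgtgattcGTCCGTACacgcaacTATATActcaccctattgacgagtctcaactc
F38E11.10 upstream, chrIV:9444542-9444641, + strand: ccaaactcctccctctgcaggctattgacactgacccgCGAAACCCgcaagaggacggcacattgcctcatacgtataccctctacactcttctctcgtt
F42C5.12 upstream, chrIV:7316632-7316731, + strand: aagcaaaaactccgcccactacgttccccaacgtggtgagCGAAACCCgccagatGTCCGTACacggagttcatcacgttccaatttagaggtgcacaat
sup-39 upstream, chrII:6968559-6968658, - strand: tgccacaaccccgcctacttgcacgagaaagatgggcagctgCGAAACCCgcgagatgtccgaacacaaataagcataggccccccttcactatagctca
sls-1.2 upstream, chrV:17131162-17131261, - strand: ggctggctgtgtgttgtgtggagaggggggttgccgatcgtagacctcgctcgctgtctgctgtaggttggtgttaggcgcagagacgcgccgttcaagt

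Among the 129 snRNA genes, 31 had CGGAACCC on either strand of these 100 bases (24%), against 0 of 612 tRNA genes, 5.78% of snoRNA genes and 0.0501% of protein-coding genes. TGTCGGTA was in 23 (17.8%), against 0.163%, 0% and 0.0801% of those classes. The wider CGNAACCC was in 46 (35.7%), with a median start 61 bp before the 5′ end and a range of 56 to 74 bp. The wider GTCNGTAC was in 30 (23.3%), and on the gene's strand it started 45 to 47 bp before the 5′ end. At least 1 of the wider pair was in 71 snRNA genes (55%), against 1.31% of tRNA genes, 8.38% of snoRNA genes and 0.491% of protein-coding genes. Because the words were found in snRNA upstream regions and widened on them, an excess over other classes is built into the choice and nothing is read from it. A match is a description of letters, not a bound site.

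Families differed in which word they held. CGNAACCC was in 11 of 12 F07C6.5 genes, 8 of 10 SmY genes, 9 of 13 sup-6 genes, 10 of 19 SL2 genes, 2 of 5 T11F9.15 genes and 5 of 24 R07E5.16 genes. GTCNGTAC was in 17 of 19 C47F8.9 genes, 6 of 19 SL2 genes, 3 of 10 SmY genes and 3 of 12 F07C6.5 genes. The SL1 genes held neither. TATAAA or TATATA was in 19 of 24 R07E5.16 genes (79.2%), 18 of them on the gene's strand with a median start 30 bp before the 5′ end, against 11.6% of tRNA genes, 13.3% of snoRNA genes and 22.5% of protein-coding genes. Of the 12 genes of rank 1000 or better, 11 held at least 1 of the wider pair and 60 of the other 117 did (51.3%), and R07E5.16 was the exception. Because the wider words were chosen from sequences of these strong members, nothing is read from that difference. In the C47F8.9 family, 17 of 19 genes held a wider word and 2 of 19 had a pooled candidate, and a link between the word and listing was not tested.

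By chromosome, II had 8 of 16 members with a pooled candidate and 5 of rank 1000 or better, III had 9 of 13 and 2, IV had 12 of 41 and 3, and I had 4 of 16 and 2. Chromosome V, which holds 40 members including the SL1 genes, had 4 and 0, and X had 1 of 3 and 0. The share over all genes of each chromosome was not computed, so no preference for a chromosome is read from these counts. By host, 55 members lay in an intron, 66 outside protein-coding genes and 8 over an exon.

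Genes whose products make or package snRNAs were read at their own 5′ ends. Of 88 symbols listed, 75 matched an annotated gene, and 45 of these 75 (60%) had a pooled summit within 500 bp, against 36.6% of all protein-coding genes, and 8 (10.7%) had one of rank 1000 or better, against 2.33%. The Integrator complex, which cuts the 3′ ends of nascent snRNAs, had candidates at 9 of 11 genes. ints-4 had 22.7 at rank 104, with ranks 474 in replicate 1 and 179 in replicate 2, and its candidate is 1 of the final peaks. ints-9 and snu-66, a gene of the U4, U5 and U6 particle, shared 1 candidate of 10.5 at rank 852. It was at rank 1252 in replicate 2 and missing from replicate 1.

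The SNAP complex gene snpc-4, whose product binds the proximal element, had 12.3 at rank 486 in the pooled list and rank 284 in replicate 2, with none in replicate 1. rpac-19, a subunit shared by RNA polymerases I and III, had 21.6 at rank 114, with ranks 94 and 311 in replicates 1 and 2, and is also near a final peak. rnp-6, a splicing factor, had 18.6 at rank 163, with ranks 1158 and 260 in replicates 1 and 2. snr-3, a Sm protein gene, had 12.9 at rank 408 and ranks 292 and 4494, and smn-1, which loads Sm proteins on snRNAs, had 11.6 at rank 602 and ranks 876 and 10682 in replicates 1 and 2. Lsm genes, whose products bind U6, had candidates at 4 of 7, none of rank 1000 or better. The list of the SNAP complex and TBP had candidates at 4 of 9, namely snpc-1.1, snpc-4, tbp-1 and tlf-1. The list of the SMN complex and cap proteins had them at 4 of 7 and the RNA polymerase III list at 5 of 10. The Sm list had them at 4 of 7 and the list of other spliceosomal particle proteins at 15 of 24.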

How the data were processed

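The 2 libraries were ChIP-seq samples of 1 group of embryos. Per the file headers and notes deposited with the lists, the authors made the peak lists from the alignment of each replicate and from pooled alignments, each against a control alignment. The aligner, the peak caller, the IDR threshold and the placing of reads with several matches are each not given in the sources used here. The signal in column 7 is the authors' own value per peak, of unstated scale, and served only for description and ranking inside 1 list. Column 9 holds the deposited −log10 of the q-value, which many top candidates share, so ranks use the signal. Read numbers are not part of the lists, so depth is unknown and intervals cover counting error over genes only.

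The 4 ce11 lists were used with the Ensembl release 115 annotation and RefSeq sequence of WBcel235. The ce10 lists were not used here. Positions count from 1. A gene was listed where a summit lay within 500 bp of it, and its strongest such summit was kept, in each list separately. Values of 1 gene in different lists can therefore come from different summits. Families were formed by symbol or by single linkage at 75% identity with at least 5 genes. Comparison sets were tRNA genes, snoRNA genes, other noncoding genes of at most 300 bp (all 612 tRNA genes, 342 of 346 snoRNA genes and 15363 piRNA genes among 24060, so the set was also read without piRNA genes, a choice made after seeing the data) and all nuclear genes. No test was run. Named genes were those with a final peak or a candidate of rank 1000 or better, the strongest of each family and the 20 of highest signal. F54C8.10, T08B6.62, T08G5.11, F08G2.10, Y17G9A.85, sls-2.15, F56A12.5, ZK897.2, C28A5.7, F54C8.9 and K09B11.12 were named after their values were seen. The members, lists and rules were chosen with earlier results of these data known. Python 3.11.15, pandas 2.3.3, numpy 2.4.6, scipy 1.17.1 and matplotlib 3.10.9 were used, and the assignment was tested on simulated data. The RNA sequences of some members are not reported here.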

Additional observations from a re-analysis of the deposited data

How the results depend on the processing

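The count of snRNA genes with a pooled candidate, 38 as reported, was 23 with summits within 100 bp, 64 within 1000 bp and 20 with the pooled list cut to the length of the replicate 1 list. Reading 1 replicate list in place of the pooled list gave 18 to 46. The count at rank 1000 or better, 12, was 6 at rank 500, and 5 to 9 in 1 replicate list read in place of the pooled list. Genes listed in both replicates numbered 15, and 9 within 100 bp. The final peak count was 1 under every alternative run, but these changed only the distance, overlap or locus rule. The final list itself was not varied. The share of strongest summits upstream, 50%, was 32.6 to 50% in 1 replicate list read in place of the pooled list. The highest signal by family, taken from 1 replicate list at a time, ran from 12 to 14.4 for R07E5.16, 6.71 to 13.5 for sls-2, 2.61 to 14.8 for smy, 4.01 to 13.3 for F07C6.5, 5.16 to 8.77 for sup-6, 2.78 to 6.44 for C47F8.9 and 5.16 to 7.58 for genes outside the families, and was 3.17 for T11F9.15, which only replicate 2 lists. The replicate 1 list is shorter than the pooled list, and the cause of these differences was not tested. Signals of different lists are not on 1 known scale, so these family values describe each list and are no measure of stability. Of the 38 alternative counts and shares, 30 stayed within 1.5 times the reported count, or within its interval for the share, and 8 moved. Chosen after seeing the data, the rank 1000 count was 10 without genes outside the families and 9 for genes with a sequence of their own. Identical copies, the fixed peak width and unknown depth limit what can be said of single genes.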
